A study of Homo sapiens with 3 samples.

Results

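The 29 genes described here encode enzymes of cholesterol synthesis, proteins of cholesterol uptake, transport and esterification, and the SREBP system that regulates them. The rule that chose them uses what their products do, and they were found by matching Ensembl identifiers to symbols. The list was chosen with earlier results of these data known. All 29 were among the 19862 genes of the deposited table, and all 29 were among the 10974 genes whose mean reached 1 FPKM (a read level per kilobase of transcript, relative to library size) over the 3 libraries. These 10974 are called the tested genes, although a rule of size stands in for a test.

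RNA sequencing was done on Hep3B cells, an established line from a human hepatocellular carcinoma, grown in medium with fetal bovine serum. The labels describe transfection with small interfering RNAs and the pcDNA3.1 vector by means of the reagent Fugene HD. The control library is titled NT-Empty and its treatment is given only as Fugene, so which plasmid or RNA these cells received, and whether the HKR3 cells also received an RNA, is not stated. The second library came from cells transfected with pcDNA3.1-HKR3, a plasmid for HKR3 (the zinc finger protein ZBTB48), and the third is labelled siTERT, for transfection with small interfering RNA against TERT. With 1 library in each group and a single cell line, no difference has a replicate check, no p-value is given, and "higher" and "lower" describe these libraries.

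ZBTB48 was at 4.91 FPKM in control cells and 2842 with HKR3. TERT was at 4.69 FPKM in control cells and 5.37 in the siTERT-labelled cells, so it was not lower where the label says it was targeted. All 5 markers of hepatocyte-derived cells reached 1 FPKM in every library, and they summed to 9139, 6655 and 9081 FPKM in the control, HKR3 and siTERT-labelled libraries. ALB, AFP, APOA1 and HNF4A were lower with HKR3 than in control cells, while FGB was higher, at 353 against 234 FPKM. Of 4 immune markers, CD68 and CD14 reached 1 FPKM and PTPRC and CD3E were at 0, with sums of 38.9, 32.6 and 48.9 FPKM. The endothelial markers CDH5 and VWF were at 0 FPKM, and PECAM1, also listed, was not found in the deposited table. The 4 stromal markers summed to 0.133 to 0.220 FPKM. The part of these marker differences in the results was not tested, and in bulk RNA fewer cells of a kind and less RNA per cell cannot be told apart. Library depth was estimated at 1.02e+07 to 1.13e+07 fragments per library. Ratios below carry a 95% exact binomial interval on fragments estimated from this depth, which covers counting error only and not the spread between cultures.

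Cells make cholesterol from acetyl-CoA through mevalonate, the prenyl diphosphates, squalene and lanosterol. When sterols in the endoplasmic reticulum are low, SCAP carries the SREBP precursor to the Golgi, where it is cut to release a transcription factor. When sterols are plentiful, INSIG proteins hold SCAP back. The liver is a main site of this pathway, and SREBP-2, encoded by SREBF2, acts mostly on cholesterol genes, while SREBP-1, encoded by SREBF1, acts largely on fatty acid genes. SREBPs usually act together with NF-Y, a factor that binds the letters CCAAT.

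The promoters of 4 genes are shown because SREBF2 and INSIG1 encode parts of the regulator itself, and HMGCS1 and MSMO1 were the enzymes with the largest differences in the HKR3 library. Each run is the 250 bases before the annotated transcript start, read 5′ to 3′ on the gene's strand, from RefSeq on GRCh38.p14, which is not the build of the deposited table. SREBF2 lies at chr22:41832855-41833104 on the plus strand, HMGCS1 at chr5:43313413-43313662 on the minus strand, INSIG1 at chr7:155297628-155297877 on the plus strand and MSMO1 at chr4:165327419-165327668 on the plus strand. Capitals mark matches to TCACNCCAC, a form of the sterol regulatory element bound by SREBPs, and to CCAAT, each on either strand. HMGCS1 had a second annotated start, and the run with more matches was chosen to be shown.
SREBF2: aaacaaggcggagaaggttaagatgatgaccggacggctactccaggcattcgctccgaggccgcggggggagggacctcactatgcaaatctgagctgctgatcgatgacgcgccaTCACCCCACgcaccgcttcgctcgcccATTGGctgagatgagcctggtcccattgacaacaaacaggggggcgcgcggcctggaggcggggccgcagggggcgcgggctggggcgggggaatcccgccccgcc
HMGCS1: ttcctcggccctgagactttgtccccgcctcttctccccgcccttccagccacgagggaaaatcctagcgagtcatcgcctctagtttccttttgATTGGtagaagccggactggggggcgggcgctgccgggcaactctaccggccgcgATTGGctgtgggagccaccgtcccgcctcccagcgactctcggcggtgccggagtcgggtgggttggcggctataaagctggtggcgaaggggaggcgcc
INSIG1: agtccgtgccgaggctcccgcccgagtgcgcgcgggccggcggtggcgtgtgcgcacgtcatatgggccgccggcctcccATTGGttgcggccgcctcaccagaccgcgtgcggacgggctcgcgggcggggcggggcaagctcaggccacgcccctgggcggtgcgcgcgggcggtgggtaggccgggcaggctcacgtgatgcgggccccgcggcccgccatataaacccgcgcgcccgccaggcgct
MSMO1: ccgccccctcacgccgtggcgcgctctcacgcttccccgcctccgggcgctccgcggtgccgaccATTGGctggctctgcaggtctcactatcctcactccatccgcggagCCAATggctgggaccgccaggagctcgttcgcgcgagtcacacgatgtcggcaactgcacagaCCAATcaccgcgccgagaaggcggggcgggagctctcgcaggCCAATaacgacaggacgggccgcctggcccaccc

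Windows from 250 bases before to 50 after the start were found for 25 of the 29 genes. ACAT2, FDFT1, SQLE and SOAT2 were not matched. Letters of CCAAT on either strand stood in at least 1 window of 20 of the 25 genes (80.0%), against 43.9% of 8980 tested genes with a window. With the window cut to the 150 bases before the start it was 18 of 25 genes (72.0%), against 33.7%. MSMO1 held 4 matches in the stretch shown, HMGCS1 held 2, and INSIG1 and SREBF2 held 1 each, while the window of a second annotated start of HMGCS1 held 0. The 5 genes without a match were PMVK, NPC1, SREBF1, SCAP and INSIG2. The sterol element letters were found only in SREBF2, 133 bases before the start, or in 1 of 25 genes against 1.47% of the tested genes with a window. Overlapping matches were counted separately, and other forms of either motif were not searched. Each match is a run of letters and no measured binding site.

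**Figure D1:**
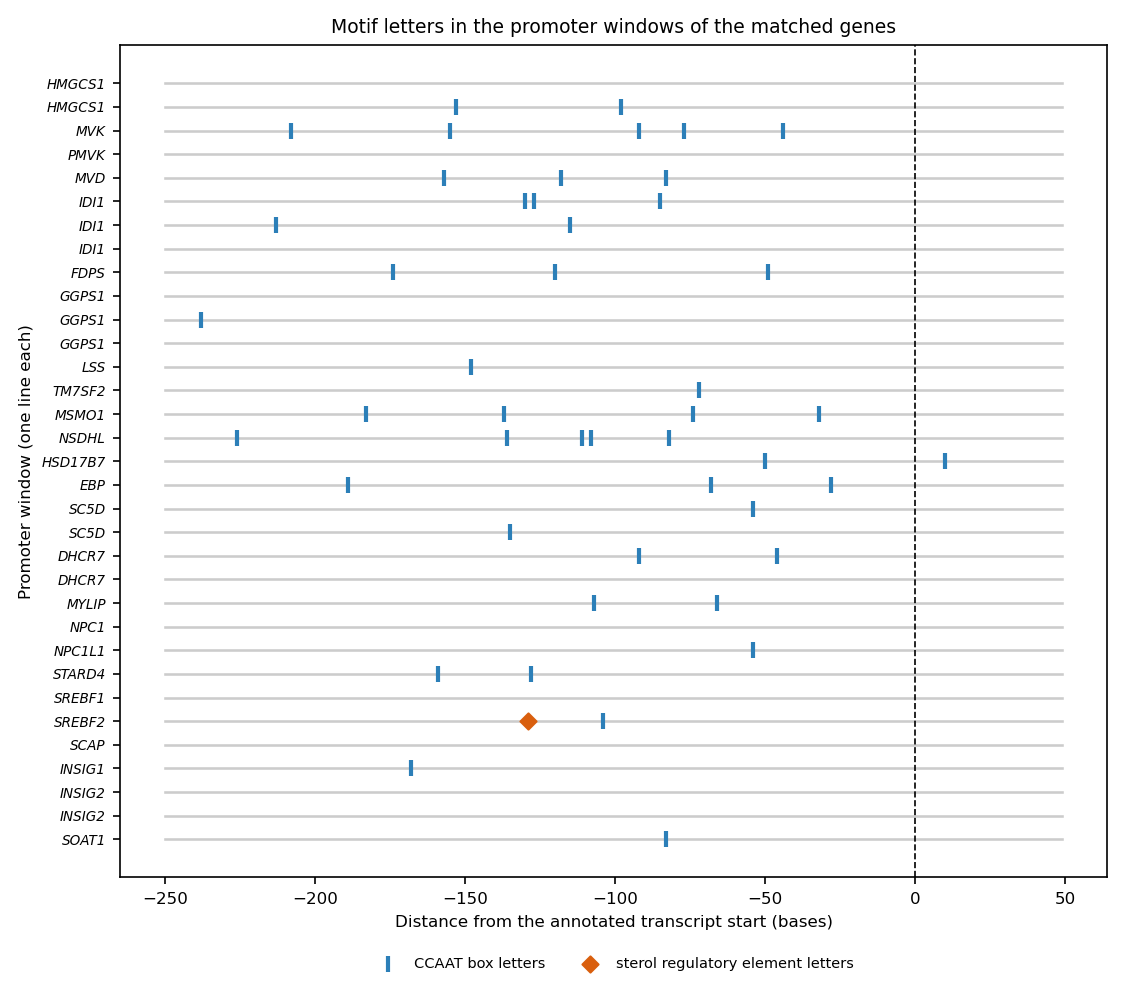
Positions of motif letters in the 33 promoter windows of the 25 matched genes, 1 line per window, with distance from the annotated start in bases on the horizontal axis. Blue bars are CCAAT matches and the orange diamond is the sterol element match, which appears in SREBF2 alone.

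Of the 29 genes, 3 were at least 2-fold higher in the HKR3 library than in the control (10.3%, against 5.52% of tested genes), and 0 were at least 2-fold lower (against 2.52%). These were INSIG1, HMGCS1 and MYLIP. All differences are of log2(FPKM + 1), which understates those of weakly expressed genes. At 1.5-fold, 7 genes were higher (24.1%, against 15.3%) and 2 were lower (6.90%, against 12.7%). MSMO1, SC5D, IDI1 and HSD17B7 made up the other 4 higher genes, and SOAT1 and PMVK were the lower pair. The median log2 difference of the 29 genes was 0.10, against -0.02 over all tested genes. Of the 29 genes, 17 were above 0 (58.6%, against 48.6% of tested genes), so the genes went both ways around a small shift. When the libraries were brought to a common FPKM sum (TPM scaling), the median of all tested genes moved from -0.02 to 0.12 and that of the 29 genes to 0.25. Over all tested genes the 2-fold counts then went from 606 higher and 277 lower to 991 and 208. Of the 29 genes, 5 were then at least 2-fold higher (against 9.03% of tested genes), with MSMO1 and SC5D joining the 3. NPC1 and SREBF2 joined those past 1.5-fold, giving 9 higher genes (against 22.1% of tested genes), and 0 were at least 1.5-fold lower (against 8.65%). A pseudocount of 5 FPKM also left 0 genes at least 1.5-fold lower, against 6.88% of tested genes with that pseudocount.

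**Figure D2:**
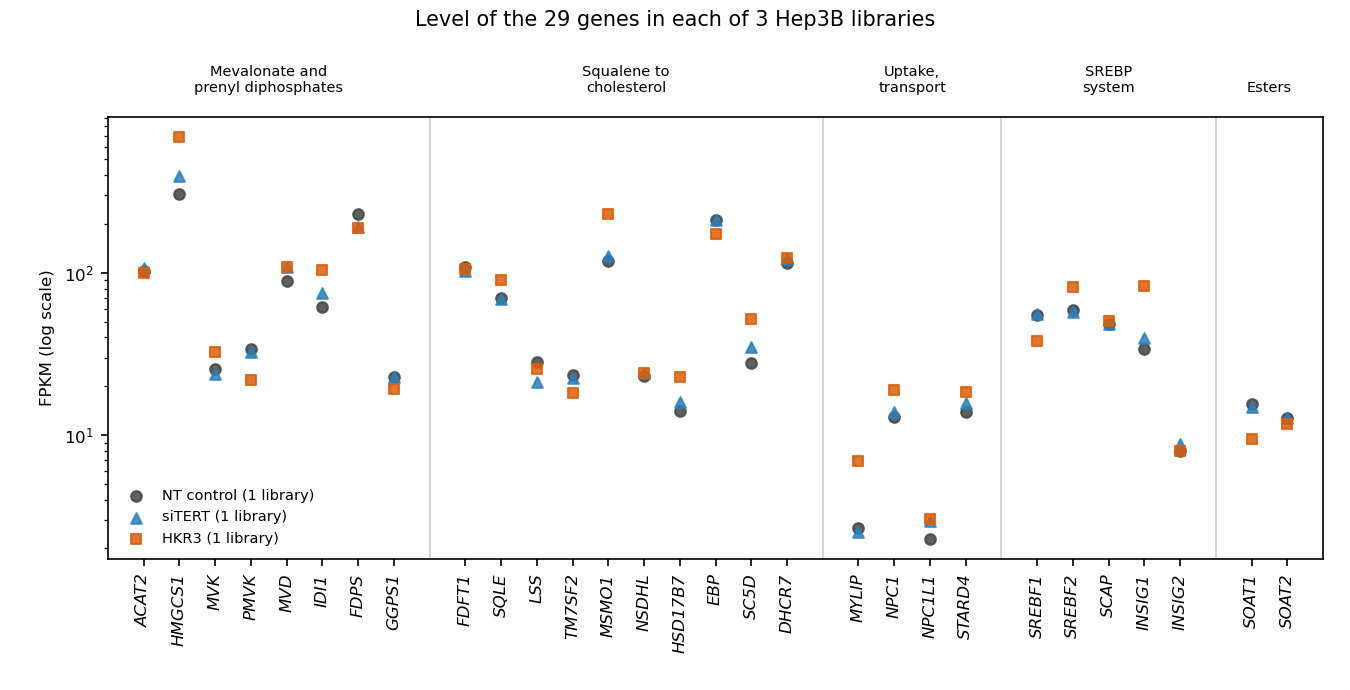
FPKM on a log axis for each of the 29 genes, grouped by role, with 1 point per library (grey circle control, blue triangle siTERT-labelled, orange square HKR3). The orange square is far above the other points for HMGCS1, MSMO1, SC5D, MYLIP and INSIG1, and below them for PMVK, SREBF1 and SOAT1.

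The first 8 enzymes lead from acetyl-CoA to farnesyl and geranylgeranyl diphosphate, and they differed in direction. HMGCS1, which condenses acetoacetyl-CoA with acetyl-CoA to HMG-CoA, was at 304 FPKM in control cells, 684 with HKR3 and 393 in the siTERT-labelled cells. It was the most abundant of the 29 transcripts in every library and stood 2.25-fold above the control in the HKR3 library (counting interval 2.199 to 2.300). IDI1, which isomerises isopentenyl diphosphate, was at 62.0, 105 and 74.7 FPKM in the same order, a ratio of 1.69 in the HKR3 library (1.59 to 1.80). MVK, mevalonate kinase, was at 25.4, 32.5 and 23.9 FPKM. MVD, which decarboxylates mevalonate diphosphate, was at 89.6, 109 and 108 FPKM, so both treated libraries lay above the control by about the same amount.

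PMVK, phosphomevalonate kinase, went the other way, at 33.8 FPKM in control cells, 21.8 with HKR3 and 32.7 in the siTERT-labelled cells. Its ratio in the HKR3 library was 0.645 (0.555 to 0.746), although PMVK works between MVK and MVD, whose ratios were 1.28 and 1.22. After scaling to TPM its log2 difference was -0.47 rather than -0.61, and with trends over all tested genes with expression, GC and length removed it was -0.33, both within 1.5-fold. FDPS, farnesyl diphosphate synthase, was at 229, 188 and 192 FPKM, lower in both treated libraries than in the control. Its log2 difference of -0.29 in the HKR3 library became 0.06 with the trends removed. GGPS1, which makes geranylgeranyl diphosphate, was at 22.8, 19.2 and 22.8 FPKM. ACAT2, the cytosolic acetoacetyl-CoA thiolase at the head of the pathway, was at 102, 99.2 and 107 FPKM, and its interval in the HKR3 comparison, 0.927 to 1.02, held 1.

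Among the 10 enzymes from squalene to cholesterol, 3 were past 1.5-fold on the higher side with HKR3 (against 15.3% of tested genes) and 0 on the lower side (against 12.7%). MSMO1, the sterol C4-methyl oxidase, was at 118 FPKM in control cells, 229 with HKR3 and 126 in the siTERT-labelled cells. Its ratio in the HKR3 library was 1.94 (1.84 to 2.04), just under the 2-fold line. SC5D, the sterol C5 desaturase, was at 28.0, 51.7 and 34.7 FPKM, a ratio of 1.85 (1.68 to 2.03) in the HKR3 library. HSD17B7, the ketosteroid reductase of the same demethylation steps as MSMO1, was at 14.0, 22.8 and 16.1 FPKM, with a ratio of 1.63 and a wide interval of 1.13 to 2.36. That interval rests on 86 estimated fragments with HKR3 and 48 in the control. They were computed with a shortest coding transcript of 336 bases, while the longest has 3087. HSD17B7 shares 19.1% of its 31-base units with the pseudogene HSD17B7P2, and reads from the shared stretches could belong to either. With the trends removed its log2 difference of 0.66 became 0.56, within 1.5-fold.

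NSDHL, the dehydrogenase that acts between MSMO1 and HSD17B7, was at 23.2, 24.0 and 24.0 FPKM, so within these demethylation steps 1 transcript was level while its neighbours were higher. SQLE, squalene epoxidase, was at 69.5, 90.5 and 69.0 FPKM, a ratio of 1.30 (1.23 to 1.38) in the HKR3 library. FDFT1, squalene synthase, was at 108, 105 and 103 FPKM, and DHCR7, which reduces 7-dehydrocholesterol in the last step of one branch, was at 116, 124 and 122 FPKM. The log2 difference of DHCR7 in the HKR3 library was 0.10, or 0.41 with the trends removed. LSS, lanosterol synthase, was at 28.3, 25.6 and 21.2 FPKM. TM7SF2, a sterol C14 reductase, was at 23.4, 18.3 and 22.3 FPKM. EBP, the sterol isomerase, was at 213, 173 and 213 FPKM, and its log2 difference of -0.29 in the HKR3 library became 0.02 with the trends removed. The signs of ACAT2, FDFT1 and LSS in the HKR3 comparison turned from below to above 0 after scaling to TPM.

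The FPKM of these 18 enzymes summed to 1610 in control cells, 2123 with HKR3 and 1707 in the siTERT-labelled cells. The ratio to the control was 1.32 with HKR3 and 1.06 in the siTERT-labelled cells, and HMGCS1 alone made up 18.9%, 32.2% and 23.0% of the sum in the same order. Without HMGCS1 the ratios were 1.10 and 1.01, so HMGCS1 held most of the difference between the sums. Of the 18 enzymes, 10 were above 0 in the HKR3 comparison (55.6%, against 48.6% of tested genes) and 8 below.

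**Figure D3:**
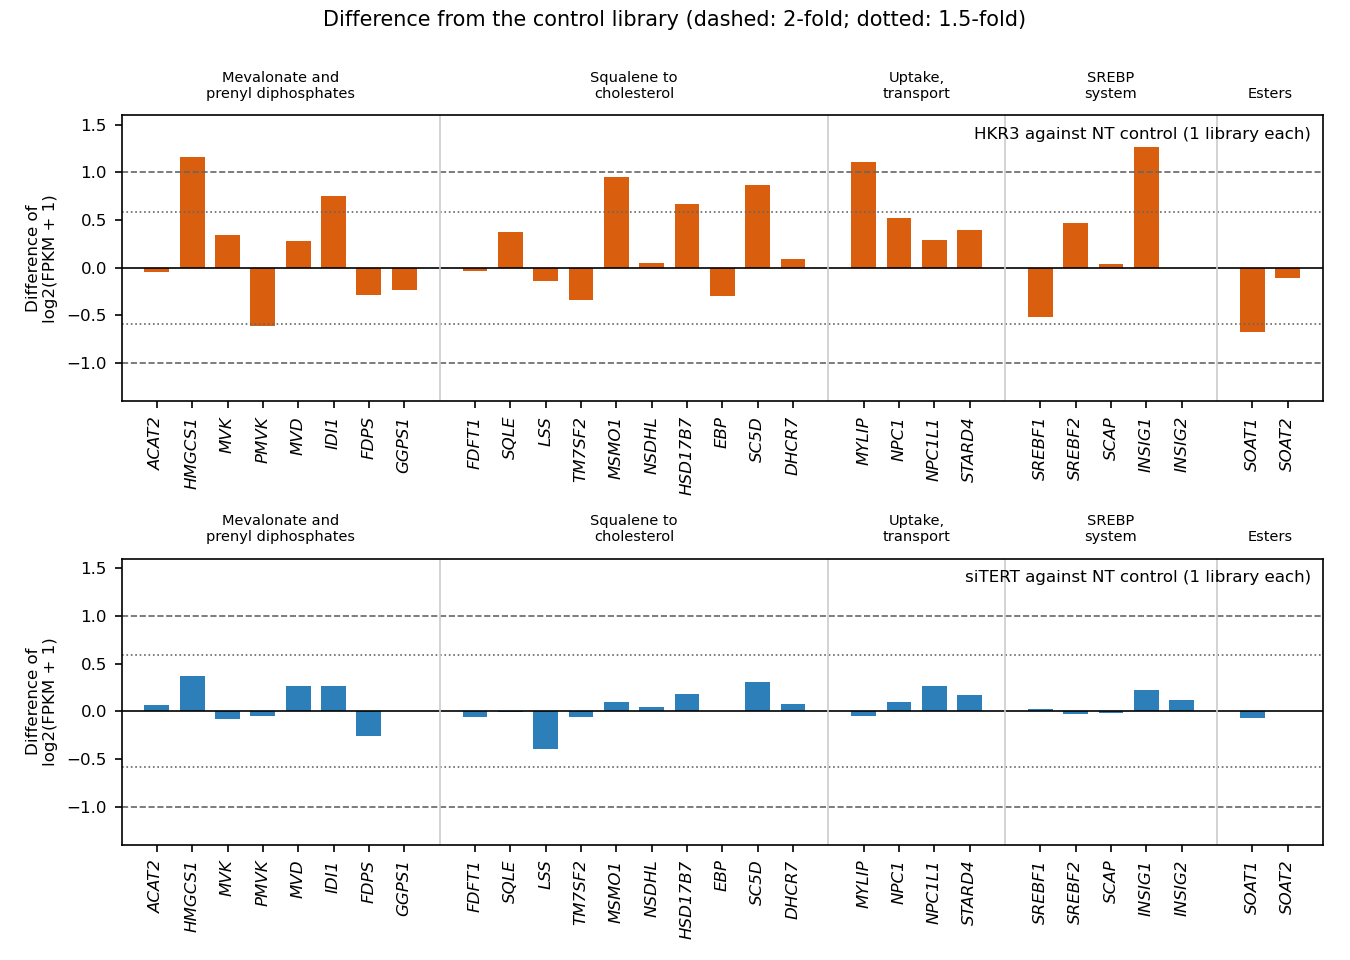
Difference of log2(FPKM + 1) from the control library for each of the 29 genes, for the HKR3 library above and the library labelled siTERT below, with 1 library on each side. Bars cross the dashed 2-fold lines for HMGCS1, MYLIP and INSIG1 in the upper panel and for 0 genes in the lower panel.

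Within the SREBP system, the members of each related pair differed from one another in the HKR3 library. INSIG1, a sterol-regulated brake on SCAP and itself a well-known SREBP target, was at 33.8 FPKM in control cells, 82.4 with HKR3 and 39.6 in the siTERT-labelled cells. The ratio in the HKR3 library was 2.44 (2.17 to 2.75), and its log2 difference of 1.26 was above that of 97.0% of tested genes. INSIG2, its relative with the same brake function, was at 7.99, 7.96 and 8.78 FPKM, with an interval of 0.822 to 1.20 in the HKR3 comparison. Its log2 difference there was -0.01, or -0.28 with the trends removed and 0.14 after scaling to TPM. The level of INSIG1 was 4.23 times that of INSIG2 in control cells, 10.4 times with HKR3 and 4.51 times in the siTERT-labelled cells.

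SREBF2 was at 58.7 FPKM in control cells, 81.9 with HKR3 and 57.6 in the siTERT-labelled cells. SREBF1 was at 55.2, 38.2 and 56.0 FPKM, so the HKR3 library was the high one for SREBF2 and the low one for SREBF1. Their ratios to the control in the HKR3 library were 1.39 (1.33 to 1.46) and 0.691 (0.650 to 0.736), neither past 1.5-fold. SREBF2 stood at 1.06 times the level of SREBF1 in control cells, 2.15 times with HKR3 and 1.03 times in the siTERT-labelled cells. With the trends removed the log2 differences were 0.70 for SREBF2 and -0.28 for SREBF1, so the directions held, with a larger difference for SREBF2 and a smaller one for SREBF1. SCAP, the escort protein, was at 48.7, 50.1 and 48.2 FPKM. Its log2 difference in the HKR3 library was 0.04, or 0.28 with the trends removed.

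All 4 genes of uptake and transport were above 0 in the HKR3 comparison, against 48.6% of tested genes, in a group of only 4. MYLIP, a ubiquitin ligase that sends lipoprotein receptors for degradation and a target of the oxysterol receptor LXR, was at 2.66 FPKM in control cells, 6.91 with HKR3 and 2.54 in the siTERT-labelled cells. Its ratio of 2.60 in the HKR3 library was the largest of the 29 genes, with an interval of 1.85 to 3.75 at this low level. On the log2(FPKM + 1) scale the difference was 1.11, or 0.64 with a pseudocount of 5 FPKM and 0.99 with the trends removed, both under 2-fold. NPC1, which exports cholesterol from lysosomes, was at 12.97, 19.01 and 13.95 FPKM, a ratio of 1.47 (1.33 to 1.62). STARD4, a cytosolic sterol carrier, was at 13.8, 18.5 and 15.7 FPKM, and its log2 difference of 0.40 was 0.13 with the trends removed. NPC1L1, the sterol uptake protein of gut and human liver, was the lowest of the 29 in the control at 2.29 FPKM, with 3.02 and 2.97 FPKM in the HKR3 and siTERT-labelled libraries. Its counting interval in the HKR3 comparison, 0.933 to 1.85, held 1. The fragments behind it were estimated with a shortest coding transcript of 2554 bases, while the longest has 5048. The width of the interval depends on that length.

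The 2 enzymes that store cholesterol as esters differed from each other. SOAT1, the form found in most tissues, was at 15.6 FPKM in control cells, 9.41 with HKR3 and 14.9 in the siTERT-labelled cells. Its ratio of 0.602 in the HKR3 library (0.547 to 0.662) was the lowest of the 29 genes, and its log2 difference was -0.68, or -0.55 after scaling to TPM, which is within 1.5-fold, and -0.87 with the trends removed. SOAT2, the form of hepatocytes and enterocytes, was at 12.7, 11.8 and 12.8 FPKM with an interval of 0.778 to 1.10. SOAT1 thus stood at 1.23 times the level of SOAT2 in control cells, 0.800 times with HKR3 and 1.16 times in the siTERT-labelled cells.

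The siTERT-labelled library, whose TERT level was above the control, had 0 of the 29 genes at least 2-fold higher or lower than the control (against 0.282% and 0.2% of tested genes), and 0 were at least 1.5-fold higher or lower (against 1.69% and 1.24%). The median was 0.02, against -0.01 over all tested genes. The largest differences were those of LSS, at -0.40, and HMGCS1, at 0.37. For LSS the ratio to the control was 0.749 (0.672 to 0.838), the lowest of the 29 genes in this library. HMGCS1 had a ratio of 1.29 (1.26 to 1.33), SC5D 1.24 (1.12 to 1.38), and MVD and IDI1 1.21 each. FDPS was lower, with a ratio of 0.836 (0.791 to 0.883). The control library is shared by both comparisons.

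Set directly against the library labelled siTERT, which was also transfected, the HKR3 library had 2 of the 29 genes at least 2-fold higher, MYLIP and INSIG1 (6.90%, against 4.11% of tested genes), and 0 at least 2-fold lower (against 1.38%). With a pseudocount of 5 FPKM, 0 of the 29 genes were past 2-fold (against 1.54% higher and 0.310% lower of tested genes). HMGCS1 and MSMO1 joined them at 1.5-fold, giving 4 higher genes (13.8%, against 12.9%), and SOAT1 was the 1 lower gene (3.45%, against 9.71%). The ratios were 2.08 for INSIG1 (1.87 to 2.32), 1.81 for MSMO1 (1.73 to 1.90), 1.74 for HMGCS1 (1.71 to 1.78) and 0.633 for SOAT1 (0.575 to 0.696). The share of higher genes at 1.5-fold was therefore near that of all tested genes in this comparison.

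The GC content of the transcripts went along with the differences in the HKR3 library, among all genes as well as these 29. Over tested genes whose longest annotated transcript had under 42% GC, the median log2 difference from the control was 0.17, and over those with at least 58% GC it was -0.22. Of the 29 genes, 9 lay in each of these ranges. The low-GC 9 had a median of 0.66 and included HMGCS1, MSMO1, SC5D, IDI1 and HSD17B7, but also STARD4, at 0.40, and SOAT1, GGPS1 and INSIG2, which were below 0. The high-GC 9 had a median of 0.04, above the -0.22 of all genes of that range, and included PMVK and SREBF1. Across the 29 genes the correlation of GC content with the difference was -0.45 (Pearson), and across 10949 tested genes with a transcript sequence it was -0.24. In the siTERT comparison it was -0.39 across the 29 genes and -0.03 across all those tested genes. Genes are not independent replicates, and all points share the same 2 libraries. The level of expression also went along with the differences. Over the 923 tested genes averaging 100 FPKM or more the median was -0.28, and the 8 genes of the 29 in that range had a median of 0.03. From 30 to 100 FPKM the medians were -0.14 over all tested genes and 0.47 over the 7 genes of the 29. From 10 to 30 FPKM, where 11 of the 29 genes lay, the order was the other way, with 0.02 over all tested genes and -0.10 over the 11. From 1 to 10 FPKM the medians were 0.09 over all tested genes and 0.29 over 3 genes of the 29. The part of GC content and expression level in each gene's difference was not tested beyond removing the trends.

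With trends with expression, GC content and length removed over all tested genes, the log2 differences in the HKR3 library were 1.31 for INSIG1, 1.26 for HMGCS1, 0.98 for MSMO1, 0.78 for SC5D and 0.77 for IDI1. The median of the 29 genes was then 0.28, with 23 of 29 above 0 (against 49.1% of all tested genes under this setting), 8 at least 1.5-fold higher (against 13.5%) and 1, SOAT1, at least 1.5-fold lower (against 10.9%). MVD and SREBF2 joined the higher genes, at 0.62 and 0.70, and HSD17B7 left them.

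**Figure D4:**
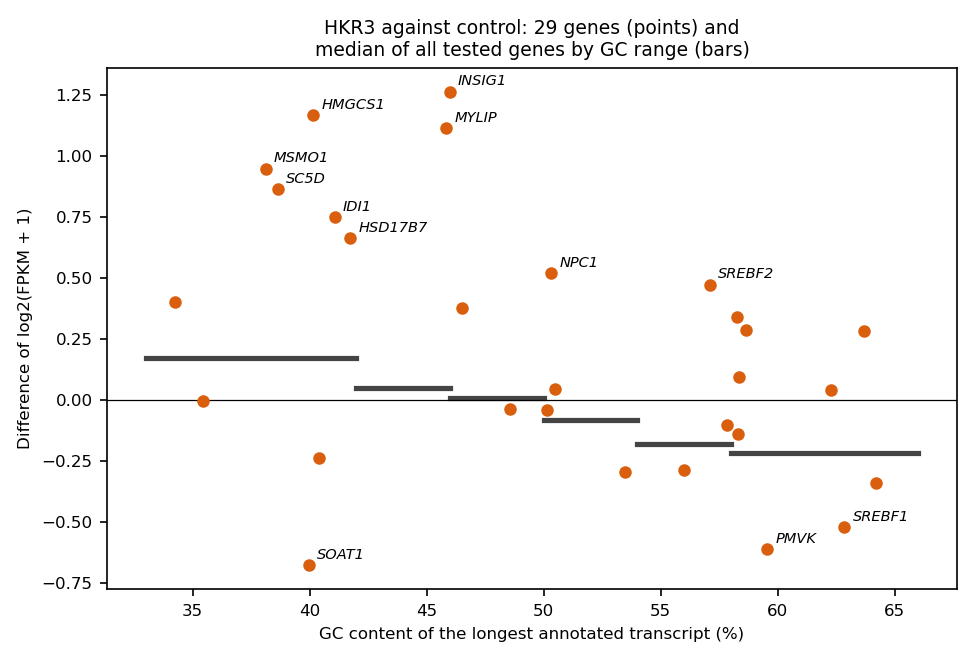
GC content of the longest annotated transcript, in percent, against the difference of log2(FPKM + 1) between the HKR3 and control libraries, for the 29 genes (orange points) and as the median of all tested genes in 6 GC ranges (grey bars). The grey bars step down from 0.17 to -0.22, and HMGCS1, MSMO1, SC5D, INSIG1 and MYLIP lie well above the bar of their range.

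Reads of overlapping or similar genes could enter some of these values, since the kit kept strand but its use in counting is not stated. Transcripts of other annotated genes, on either strand, held 50.3% of the 31-base units of ACAT2, 43.3% of those of GGPS1, which overlaps TBCE on the same strand, and 23.3% of those of FDPS. For HMGCS1 and IDI1 the share was 16.3% each, mostly with antisense RNAs. INSIG1 and MYLIP shared 0 units with another gene.

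The genes whose pattern over the 3 libraries was nearest to that of INSIG1, by the distance between the 2 log2 differences from the control, were ELF1, AFF4 and TRIM11. ELF1 was at 15.2, 37.9 and 18.0 FPKM in the control, HKR3 and siTERT-labelled libraries, AFF4 at 5.37, 14.2 and 6.48 FPKM, and TRIM11 at 18.8, 46.2 and 22.4 FPKM. Of the 29 genes, HMGCS1 was the nearest, in place 113 among all tested genes.

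Other genes of the pathway, from 5 further lists, were read against the same background in the HKR3 comparison. Of 10 genes for SREBP processing and sterol-regulated degradation, 0 were past 2-fold (against 5.52% higher and 2.52% lower), 5 were above 0 (against 48.6%), and the median was -0.05. ERLIN2, which with its partner ERLIN1 guides sterol-regulated degradation at the endoplasmic reticulum, was at 24.9 FPKM in control cells and 16.1 with HKR3, and ERLIN1 was at 53.7 and 38.8 FPKM. MBTPS1, the site-1 protease that makes the first cut in SREBP, was at 33.8 and 23.6 FPKM. UBE2G2, a ubiquitin-conjugating enzyme of that degradation, was at 33.4 and 23.7 FPKM.

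Of 13 genes of the isoprenoid branches, which use farnesyl and geranylgeranyl diphosphate, 0 were past 2-fold (against 5.52% higher and 2.52% lower). At 1.5-fold, 2 were higher (15.4%, against 15.3% of tested genes) and 2 were lower (15.4%, against 12.7%), both near the background, and the median was 0.07. RABGGTB, a subunit of the transferase that prenylates RAB proteins, was at 86.0 FPKM in control cells and 165 with HKR3, and FNTB, the beta subunit of farnesyltransferase, at 3.07 and 5.90 FPKM. ICMT, which methylates prenylated proteins, was at 49.02 and 30.55 FPKM, and PDSS1, which makes the side chain of coenzyme Q, at 19.2 and 12.2 FPKM.

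Fatty acid genes regulated by SREBP-1 had a median of -0.14, with 4 of 12 above 0 (33.3%, against 48.6% of tested genes). Of the 8 genes below 0, the nearest to 0 were at -0.01, -0.14 and -0.15. After scaling to TPM, 58.9% of all tested genes were above 0, and this list was not recomputed that way. LPIN1, a phosphatidate phosphatase, was the 1 gene at least 2-fold higher (8.33%, against 5.52%), at 2.05 FPKM in control cells, 5.95 with HKR3 and 3.08 in the siTERT-labelled cells. GPAM, an acyltransferase of glycerolipid synthesis, was at 27.8 and 18.1 FPKM in the control and HKR3 libraries, ACACA, acetyl-CoA carboxylase, at 15.8 and 12.05 FPKM, and ME1, malic enzyme, at 36.4 and 48.3 FPKM.

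Of 7 genes for LXR and cholesterol efflux, 4 were tested, and 3 of these were lower with HKR3 by 1.5-fold or more, against 12.7% of tested genes. Their log2 differences were -0.91 for LPCAT3, -0.68 for NR1H3 and -0.59 for ABCA1, and they were not recomputed after scaling to TPM. SOAT1, also at -0.68, came within 1.5-fold under that scaling. LPCAT3, a phospholipid-remodelling enzyme and LXR target, was at 66.7 FPKM in control cells and 35.0 with HKR3. NR1H3, encoding LXR alpha, was at 28.4 and 17.3 FPKM, and ABCA1, the exporter of cholesterol to apolipoproteins and an LXR target, at 9.24 and 5.81 FPKM. MYLIP, also an LXR target, was higher in the same library, so these 3 LXR targets did not share a direction. NR1H2, encoding LXR beta, was at 33.4 and 39.7 FPKM, while ABCG1, ABCG5 and ABCG8 were below a mean of 1 FPKM.

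Of 13 genes for lipoprotein and lysosomal cholesterol handling, 11 were tested, with 0 at least 1.5-fold higher (against 15.3% of tested genes), 4 at least 1.5-fold lower (36.4%, against 12.7%) and a median of -0.34, against -0.02 over all tested genes. The 4 lower genes were at -0.86 for VLDLR, -0.81 for LIPA, -0.69 for GRAMD1A and -0.66 for LRP1. Whether the last of these stay past 1.5-fold after scaling to TPM was not tested. VLDLR, a lipoprotein receptor, was at 3.79 FPKM in control cells and 1.63 with HKR3. LIPA, the lysosomal acid lipase, was at 17.6 and 9.61 FPKM, GRAMD1A, a sterol carrier from plasma membrane to endoplasmic reticulum, at 48.0 and 29.2 FPKM, and LRP1, a large endocytic receptor, at 25.7 and 15.9 FPKM. LIPA and NPC1 act one after the other in the lysosome, and in the HKR3 library LIPA was lower while NPC1 was higher. In the siTERT-labelled library, 0 tested genes of the 5 lists were past 1.5-fold (against 1.69% higher and 1.24% lower of tested genes).

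**Figure D5:**
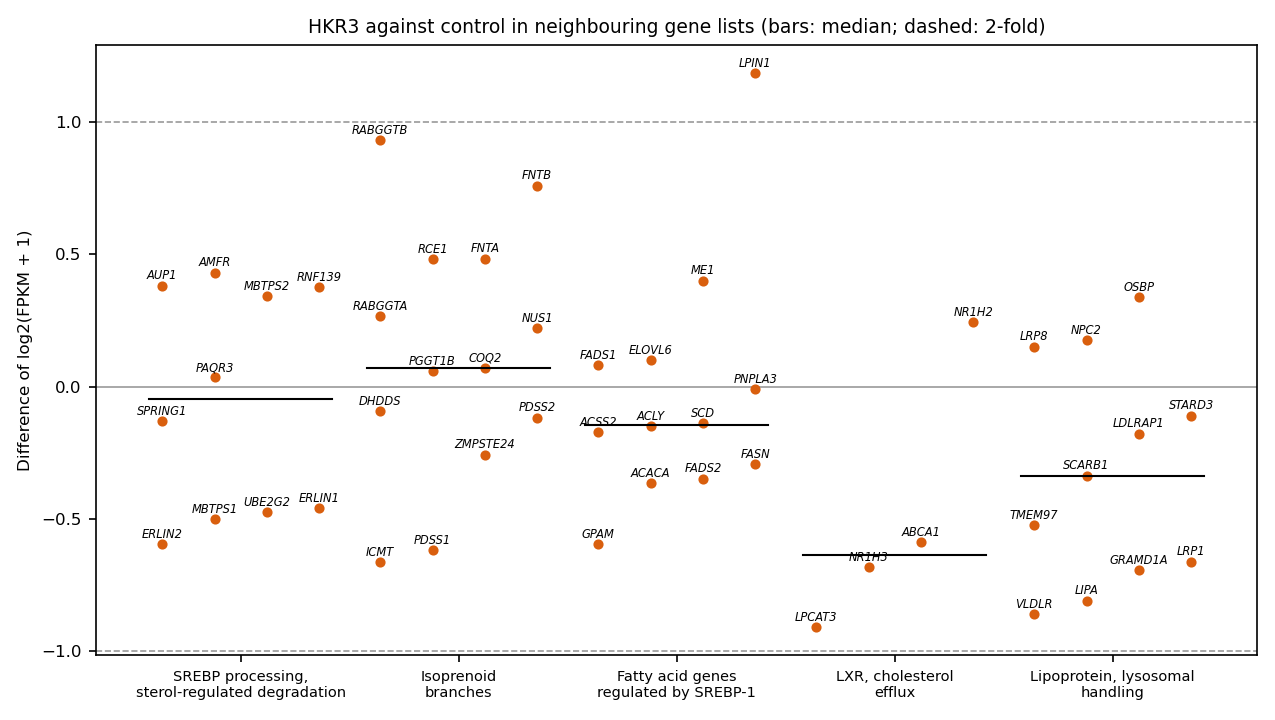
Difference of log2(FPKM + 1) between the HKR3 and control libraries for the tested genes of 5 neighbouring lists, 1 point per gene, with the list's median as a black bar; sideways position within a list has no meaning. LPIN1 is the 1 point above the dashed 2-fold line, and 3 of the 4 points of the LXR and efflux list lie at -0.59 or lower.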

How the data were processed

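The authors deposited FPKM per gene for 3 libraries, 1 column each. STAR 2.5.0, Cufflinks and Cuffdiff 2.2.1 with hg19 are named in the submitters' processing notes, with no order or settings. RNA was extracted with TRIzol and libraries made with a stranded TruSeq messenger RNA kit, per the labels' protocols. Whether FPKM was scaled further between libraries, or strand used in counting, is not stated in the labels. Groups come from titles and treatment labels.

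Of 19869 entries, 19119 matched a symbol by Ensembl identifier. Short noncoding RNAs (4) were dropped, and then 6 entries that shared symbols were summed to 3 genes, which left 19862. Differences are of log2(FPKM + 1), a pseudocount of 1 FPKM, over genes whose mean reached 1 FPKM; a 2-fold size rule stands in for a test, with 1.5-fold also counted. Named genes were all 29 members, up to 4 genes per further list with the largest absolute difference in the HKR3 comparison, ZBTB48, TERT, and the 3 genes nearest to INSIG1. The 29 genes and all lists were chosen with earlier results of these data known. A gene of the SREBP processing list is not reported here and was left out of that list's counts.

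Depth was estimated from the FPKM worth of 1 fragment in low genes with 1 transcript of at least 1000 bases in GENCODE v29 (67 to 72 of 142 to 172 such genes per library lay within 25% of 1 fragment, so it is approximate). Fragments per gene used the shortest coding transcript in the consensus set; intervals are exact binomial at 95%. The trend model was a linear fit on cubic splines with 5 quantile knots each for expression, GC content and longest transcript length. Calculations were tested on simulated data. Python 3.11.15, pandas 2.3.3, scipy 1.17.1 and scikit-learn 1.9.0 were used. Alternatives were pseudocounts of 0.1 and 5 FPKM, no filter, a mean of at least 5 FPKM, scaling to TPM or to the median ratio, a window of 150 bases before the start for motifs, and, added after seeing the data, removal of the trends.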

Additional observations from a re-analysis of the deposited data

How the results depend on the processing

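With 1 library per group, leaving out a replicate was not possible. No paired analysis was possible because each group holds 1 library with no replicate number in the labels. Of 435 differences of single genes of the 29 recomputed under another pseudocount, scaling or the trend removal (a filter cannot change them), 335 moved by less than 0.1 in log2 or stayed past 2-fold, and 6 crossed that line. After scaling to TPM, 5 of the 29 genes were past 2-fold in the HKR3 comparison instead of 3, the median was 0.25 instead of 0.10, and the synthesis enzymes summed to 1.47 instead of 1.32 times the control. With the trends removed, an alternative chosen after seeing the data, the medians were 0.28 in the HKR3 comparison and 0.31 against the library labelled siTERT, where scaling to TPM gave 0.14 and the reported value was 0.03. Against that library, 0 genes were past 2-fold with a pseudocount of 5 FPKM and 1 with a mean of at least 5 FPKM, instead of 2. With the pseudocount of 5, INSIG1 was at 0.97 and MYLIP at 0.66. The sign of 7 genes turned under at least 1 alternative in the HKR3 comparison, ACAT2, FDFT1, LSS, SOAT2 and INSIG2 with TPM and also FDPS and EBP with the trends removed, each from a difference of at most 0.29 in size. The deposited FPKM summed to 596536 in control cells and 535516 with HKR3; the causes of that gap and of the trends were not tested. Estimated fragments were fewest for MYLIP, HSD17B7 and NPC1L1, which limits their intervals, and these estimates depend on the transcript length used as well as on depth.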
